A study of Mus musculus with 9 samples.

Results

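The 9 genes described here carry glucose into the cell, turn pyruvate into lactate or carry lactate out: the glucose carriers Slc2a1, Slc2a3 and Slc2a6, the lactate dehydrogenase subunits Ldha and Ldhb, the monocarboxylate carriers Slc16a1, Slc16a3 and Slc16a7, and the carrier partner Bsg. They were chosen by gene symbol, and all 9 of 9 were found among the 54532 genes of the deposited table. BV2, a microglial line of the mouse that was immortalized with oncogenes, was the only cell type, and its RNA was sequenced in 3 libraries for each of 3 groups. Control cells (Ctrl) were kept in complete medium with 10% serum. Cells of the OGD group (oxygen-glucose deprivation) were moved to medium low in glucose and to a chamber low in oxygen, with 4% serum, so oxygen, glucose and serum changed together and cannot be told apart. The OGD + A-485 group (labelled OGD_A_485) was treated in the same way with A-485 in addition, which blocks the histone acetyltransferase P300. OGD is taken to have lasted 24 h and A-485 to have been given at 50 μM throughout, as in the cell experiments that came before the sequencing, since the sequenced cultures are not described separately. No library of cells given A-485 without OGD was analysed here, so the effect of A-485 is measured only under OGD. All groups come from 1 cell line, and nothing in the labels says that the libraries of a group came from separate cultures, so the p-values measure the spread between these libraries, which may be technical.

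In cells short of oxygen, pyruvate from glycolysis is reduced to lactate, which regenerates the NAD that glycolysis needs. Facilitative glucose carriers of the SLC2 family let glucose enter along its gradient. Lactate dehydrogenase is a tetramer of the muscle-type subunit A and the heart-type subunit B in varying proportions. Lactate leaves with a proton through monocarboxylate carriers, of which MCT4 (Slc16a3) is typical of glycolytic cells and MCT1 (Slc16a1) works in both directions. Basigin, the product of Bsg, brings MCT1 and MCT4 to the cell surface. Glucose entry and lactate formation are classical targets of the hypoxia-inducible factors, and lactate is also a substrate for lactylation of histones, the modification that the study followed.

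The deposited values are FPKM, reads per gene adjusted for the length of the gene and the depth of the library. A single length is used for each gene. Levels of different genes can be set side by side only as far as that length fits the transcripts present. The sums, shares and order of genes given below carry this limit. The libraries held between 12593250 and 16091038 reads on genes. Of 12 microglial markers, 9 had a mean of at least 1 FPKM, while Fcrls, P2ry12 and Sall1 were close to 0 in the control and OGD groups and Aif1 averaged 0.613 FPKM in the control group. The summed level of the 12 markers was 145 to 158.8 FPKM in the control libraries, 197.9 to 210 FPKM under OGD and 553.2 to 576.8 FPKM with A-485, and the part of this shift in the results given here was not tested. None of the 4 markers listed for each of astrocytes, neurons, oligodendrocytes, endothelium and fibroblasts reached a mean of 1 FPKM over the 9 libraries, and the highest group mean among them was that of the oligodendrocyte gene Mbp under OGD, at 1.10 FPKM. As in any bulk sample, a change in the level per cell and a change in the make-up of the culture cannot be told apart.

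Promoters of 6 of the 9 genes were found in RefSeq (GRCm38.p6). They were searched for the core of the hypoxia response element in the forms ACGTG and GCGTG. The search covered either strand within 250 bases before the start of transcription. Of those 6 genes, 4 held ACGTG. The same 5 letters stood in 16.6% of the 32851 promoters searched. The stretches are shown because the RNA of these 4 genes took different courses under OGD. They are written 5′ to 3′ in the direction of the gene, and capitals mark ACGTG or its reverse complement, which overlap where the capitals read CACGTG (found in 6.02% of promoters).

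Ldha (plus strand, chr7:46845644-46845789): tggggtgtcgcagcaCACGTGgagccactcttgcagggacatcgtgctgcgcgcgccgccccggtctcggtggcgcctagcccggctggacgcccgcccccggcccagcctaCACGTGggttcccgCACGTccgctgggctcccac
Slc16a1 (plus strand, chr3:104638449-104638484): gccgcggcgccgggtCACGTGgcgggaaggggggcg
Slc2a1 (plus strand, chr4:119108697-119108725): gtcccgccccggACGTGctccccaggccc
Slc16a3 (plus strand, chr11:120949034-120949063): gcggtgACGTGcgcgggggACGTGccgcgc

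Ldha had ACGTG at 3 places, which began 145, 48 and 34 bases before the start. Slc16a3 had it at 2 places, 27 and 14 bases before the start. Slc2a1 and Slc16a1 each had it at 1 place, 36 and 200 bases before the start. Part of the Slc2a1 and Slc16a3 stretches (15 and 11 bases) lies in exons that GENCODE M21 annotates for longer transcripts. A second promoter of Ldha and the promoters of Slc2a6 and Ldhb did not hold ACGTG. They did hold the other form, GCGTG, with 1, 4 and 1 matches. Slc16a1 and Slc2a1 held GCGTG as well, with 2 matches and 1 match. GCGTG stood in 28.2% of all promoters searched, and either form in 38.6%. A match in these letters is a description and shows no binding.

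Compared with the control group, OGD raised the RNA of the glucose carriers Slc2a1 and Slc2a3 and of Bsg, lowered that of Slc16a1, and left Ldha within the spread of its libraries. Slc2a3 rose 5.83-fold and Slc2a1 2.47-fold, Bsg rose 1.81-fold, and Slc16a1 fell by 50.3%. With A-485 under OGD, the lactate carriers Slc16a1 and Slc16a3 and the glucose carrier Slc2a6 were higher than with OGD alone, by 1.65, 1.53 and 1.67-fold. The change of Slc2a1 in the same comparison was -25.2%, short of the fold that a call needs. Ldha stayed between 765 and 870 FPKM in all 9 libraries. Folds in this paragraph are ratios of mean FPKM.

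**Figure D1:**
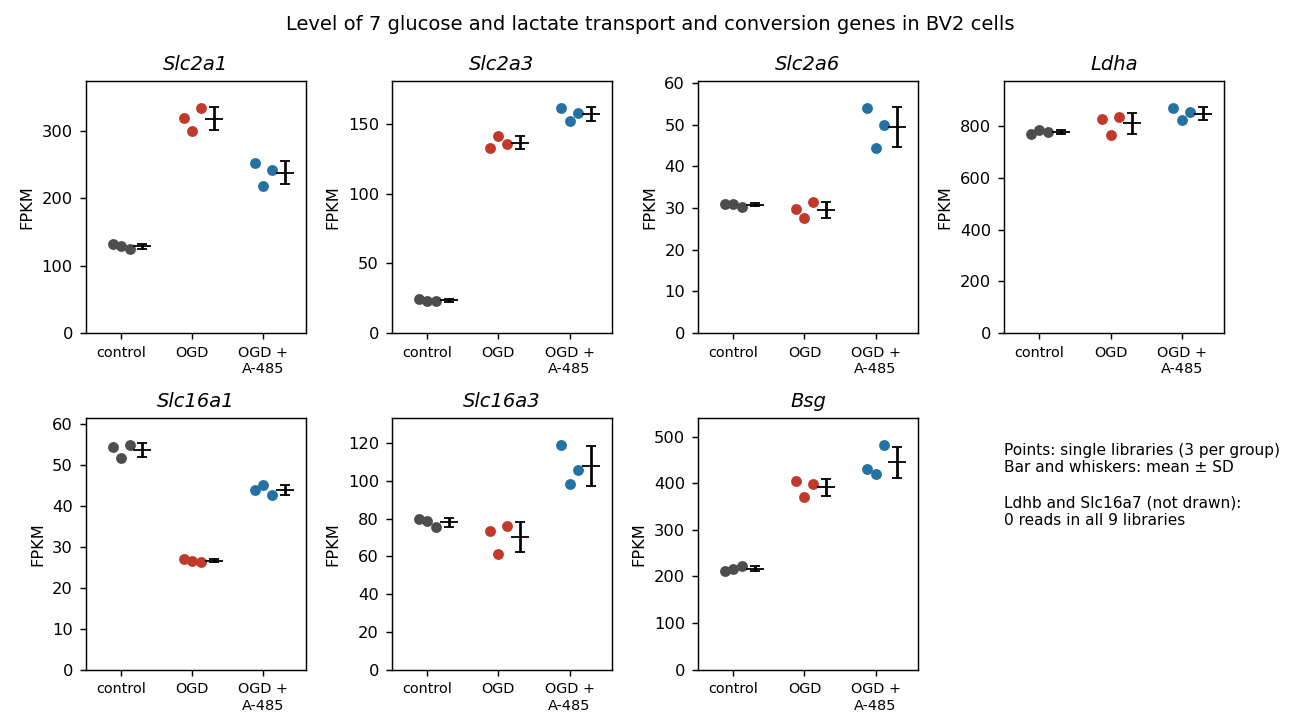
Level of the 7 expressed genes in FPKM (vertical axis, from 0), with a point for each library and the mean ± SD of each group beside it (n = 3). Slc2a3 rose from 22.9 to 24.4 FPKM in the control libraries to 133 to 142 FPKM under OGD, while Ldha stayed between 765 and 870 FPKM throughout.

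limma was fitted to log2(FPKM + 0.1) of 16123 genes, and a gene counts as called where p before adjustment was under 0.01 and the log2 fold change passed 0.5 in either direction, the thresholds that the study used. Benjamini-Hochberg adjusted p-values over all those genes are given beside. Fold changes on the log2(FPKM + 0.1) scale understate changes of genes with low values. Ldhb and Slc16a7 did not reach the minimum mean of 0.2 FPKM, so 7 of the 9 genes were tested. In OGD against control, 3 of them were called higher and 1 lower, where 21.0% of all tested genes were called (11.2% higher and 9.81% lower). In OGD + A-485 against OGD, 3 were called higher and 0 lower, against a background of 25.7% (12.2% higher and 13.4% lower). In OGD + A-485 against control, 4 were called higher and 0 lower, against 33.7% (17.0% higher and 16.6% lower). The 3 comparisons share libraries and are not independent. With 3 libraries against 3, the smallest p that an exact permutation test allows is 0.1, so none is given for single genes.

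Slc2a1 (ENSMUSG00000028645, chr4:119108711-119137983, plus strand) encodes GLUT1, the widespread carrier of basal glucose uptake. Its control libraries held 132, 129 and 124 FPKM, the OGD libraries 319, 299 and 334 FPKM, and the OGD + A-485 libraries 252, 219 and 242 FPKM. The 3 groups did not overlap, with OGD the highest and A-485 between the others. OGD raised Slc2a1 by 1.30 ± 0.06 on the log2 scale (SE, adjusted p = 1.41e-06). With A-485 its difference from OGD was -0.42 ± 0.06 (adjusted p = 0.000492), which passed the adjusted threshold of 0.05 but not the fold limit. It did pass that limit, at -0.56, after quantile normalization. Against control, the level with A-485 was still higher, by 0.88 ± 0.06 (adjusted p = 3.47e-06).

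Slc2a3 (ENSMUSG00000003153, chr6:122727809-122801640, minus strand) encodes GLUT3, a carrier of high affinity known best from neurons. It held 24.4, 22.9 and 22.9 FPKM in the control libraries, 133, 142 and 135 FPKM under OGD, and 161, 152 and 158 FPKM with A-485. Its rise under OGD was 2.54 ± 0.04 on the log2 scale (adjusted p = 9.18e-09), the largest of the 7 genes tested. Of 5269 genes that averaged 10 FPKM or more it was number 13 from the top. The groups did not overlap, and the A-485 libraries were the highest. The difference between A-485 and OGD was 0.20 ± 0.04 (adjusted p = 0.00343), under the fold limit. It turned to -0.13 when the median change of the 50 nearest genes on the chromosome was removed, so no direction is given for it. Against control, Slc2a3 with A-485 was higher by 2.74 ± 0.04 (adjusted p = 2.29e-09).

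Slc2a6 (ENSMUSG00000036067, chr2:27021363-27027998, minus strand) encodes GLUT6, a carrier found on lysosomes and prominent in activated macrophages. Its values were 30.9, 31.0 and 30.4 FPKM in the control libraries, 29.7, 27.6 and 31.4 FPKM under OGD, and 54.0, 44.5 and 49.96 FPKM with A-485. Control and OGD overlapped, with a difference of -0.06 (95% interval -0.22 to 0.10, adjusted p = 0.540), and every A-485 library was above every other. The rise with A-485 was 0.74 ± 0.07 against OGD (adjusted p = 3.91e-05) and 0.68 ± 0.07 against control (adjusted p = 4.50e-05). Of the glucose carriers tested here, Slc2a6 is thus the one called between A-485 and OGD and not between OGD and control. Whether its response differs from that of the others was not tested.

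The summed level of the 3 glucose carriers was 182.9 ± 5.0 FPKM in the control group, 483.6 ± 15.8 FPKM under OGD and 443.9 ± 26.6 FPKM with A-485 (SD, n = 3). Slc2a1 made up 70.4% ± 0.3 of this sum in control cells, 65.6% ± 1.5 under OGD and 53.5% ± 0.7 with A-485. The share of Slc2a3 went from 12.8% ± 0.3 to 28.3% ± 1.7 and 35.4% ± 1.1. The share of Slc2a6 went from 16.8% ± 0.3 to 6.11% ± 0.20 and 11.1% ± 0.4. The libraries of the 3 groups did not overlap in any of these shares. The mixture in the OGD + A-485 group therefore lay further from control than that in the OGD group for Slc2a1 and Slc2a3, though the total was lower than under OGD. Shares were described and not tested, and they are made from the same values of the 3 genes that the comparisons above already use. The share of Slc2a6 fell under OGD while its own level, 30.8 FPKM in control and 29.6 FPKM under OGD, was not called.

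**Figure D2:**
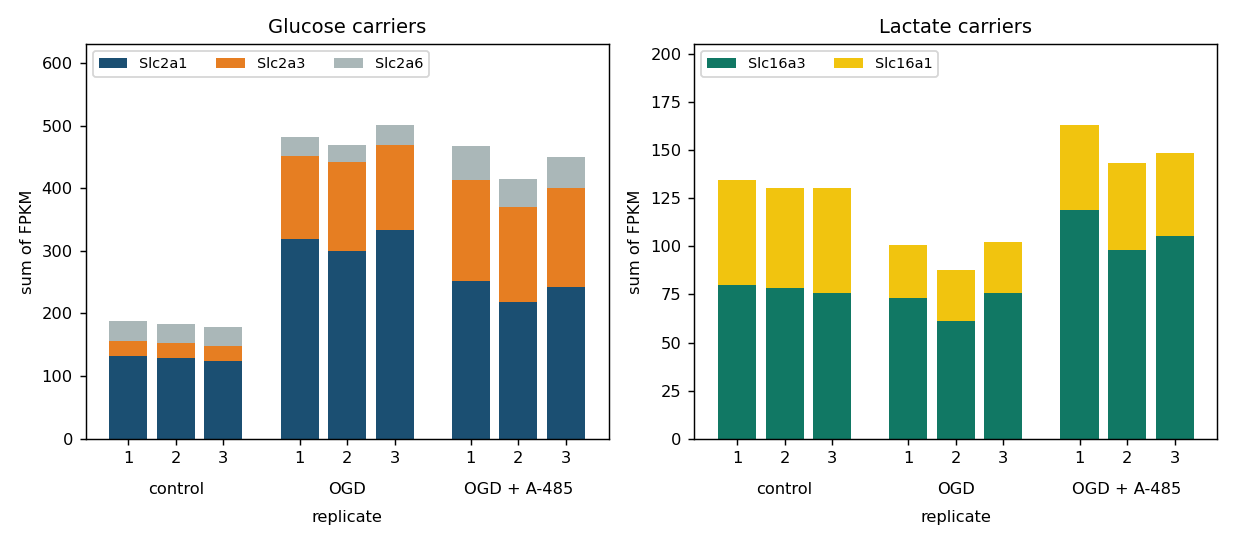
Summed FPKM (vertical axis, from 0) of the glucose carriers on the left and of the lactate carriers on the right, stacked by gene, with a bar for each library. Glucose carriers sum to 177.7 to 187.6 FPKM in the control libraries and 468.7 to 500.2 FPKM under OGD, while lactate carriers sum to 130.3 to 134.4 FPKM in control, 87.6 to 102.3 FPKM under OGD and 143.4 to 162.9 FPKM with A-485.

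Ldha (ENSMUSG00000063229, chr7:46841475-46855627, plus strand) encodes subunit A of lactate dehydrogenase, which favours the reduction of pyruvate to lactate. It was the most abundant of the 9 genes in every library. Its values were 769, 784 and 778 FPKM in the control libraries, 829, 765 and 836 FPKM under OGD, and 870, 822 and 853 FPKM with A-485. The OGD libraries spread on both sides of the control libraries, while all 3 A-485 libraries were above control. The difference between OGD and control was 0.06 ± 0.05 on the log2 scale (95% interval -0.06 to 0.18, adjusted p = 0.412), that between A-485 and OGD 0.07 ± 0.05 (-0.06 to 0.19, adjusted p = 0.342), and that between A-485 and control 0.13 ± 0.05 (0.004 to 0.25, adjusted p = 0.0744). All 3 differences turned negative under quantile normalization, to -0.06, -0.12 and -0.18, and after removal of the change of neighbouring genes, to -0.11, -0.03 and -0.15. No direction can be given for Ldha, and each interval lies within the fold limit of 0.5 on either side. Each library held 32979 to 42962 Ldha reads.

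Ldhb (ENSMUSG00000030246, chr6:142490249-142507957, minus strand), which encodes subunit B, had 0 reads in all 9 libraries. At 3 reads, the limit that a count of 0 allows, its level would be 0.118 to 0.150 FPKM per library. Ldha thus accounted for 100% of the summed Ldha and Ldhb values in every library. Of 80 protein-coding genes with a ribosomal protein symbol, only 1 (Rpl10l) was at 0 in all libraries. Of the other lactate dehydrogenases, Ldhc and Ldhal6b of the testis type were also at 0 throughout. Ldhd, the mitochondrial enzyme for D-lactate, held 1.57 ± 0.11 FPKM in control, 2.27 ± 0.19 under OGD and 0.378 ± 0.036 with A-485. Its call under OGD, 0.50 ± 0.13 (adjusted p = 0.0134), was lost under several alternatives, among them without control replicate 1 or 3 and without OGD replicate 2 or 3. Its fall with A-485 against OGD was -2.31 ± 0.13 (adjusted p = 1.78e-06).

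Slc16a1 (ENSMUSG00000032902, chr3:104638668-104658462, plus strand) encodes MCT1. The control libraries held 54.5, 51.8 and 55.0 FPKM, the OGD libraries 27.1, 26.6 and 26.4 FPKM, and the A-485 libraries 43.8, 45.2 and 42.8 FPKM. The groups were separate, with OGD the lowest and A-485 nearer to control. Under OGD it fell by 1.01 ± 0.04 on the log2 scale (adjusted p = 3.73e-07), number 52 from the bottom of the same 5269 genes. With A-485 it was 0.72 ± 0.04 above OGD (adjusted p = 9.70e-07). Its difference from control was then -0.29 ± 0.04 (adjusted p = 0.000143), below the fold limit, and the groups still did not overlap.

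Slc16a3 (ENSMUSG00000025161, chr11:120948480-120960868, plus strand) encodes MCT4. Its values were 80.0, 78.5 and 75.6 FPKM in control, 73.4, 61.0 and 76.0 FPKM under OGD, and 119, 98.2 and 106 FPKM with A-485. Control and OGD overlapped, and all A-485 libraries were above the rest. The difference under OGD was -0.16 ± 0.09 (95% interval -0.37 to 0.05, adjusted p = 0.196). With A-485 it was 0.62 ± 0.09 above OGD (adjusted p = 0.000504), a call that quantile normalization (0.48) and removal of the neighbouring genes' change (0.47) brought under the fold limit. Against control the difference was 0.46 ± 0.09 (adjusted p = 0.00233) and passed the fold limit, at 0.52, only when A-485 replicate 2 was left out.

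Slc16a7 (ENSMUSG00000020102, chr10:125219270-125389465, minus strand), which encodes MCT2, a carrier of high affinity for uptake, had 0 reads in all libraries, where 3 reads would give 0.0156 to 0.0199 FPKM. Slc16a1 and Slc16a3 together came to 131.8 ± 2.3 FPKM in control, 96.8 ± 8.0 under OGD and 151.6 ± 10.1 with A-485. Slc16a3 made up 59.2% ± 1.2 of that sum in control, 72.3% ± 2.4 under OGD and 70.9% ± 2.3 with A-485. The share was higher in every OGD and A-485 library than in any control library, and the OGD and A-485 libraries overlapped.

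Bsg (ENSMUSG00000023175, chr10:79704491-79711969, plus strand) held 212, 216 and 222 FPKM in the control libraries, 405, 370 and 398 FPKM under OGD, and 431, 420 and 482 FPKM with A-485. It rose by 0.85 ± 0.06 under OGD (adjusted p = 9.36e-06). Of the carriers that it serves, Slc16a1 fell in the same libraries and Slc16a3 was not called (-0.16 ± 0.09, adjusted p = 0.196). For Bsg, every A-485 library was above every OGD library, but the difference of 0.18 ± 0.06 (adjusted p = 0.0337) was under the fold limit and turned to -0.02 under quantile normalization. Against control, Bsg with A-485 was higher by 1.03 ± 0.06 (adjusted p = 1.11e-06). Emb, the related chaperone that serves MCT2, was measured at 39.2 ± 2.0, 30.2 ± 1.3 and 35.2 ± 1.4 FPKM in the 3 groups and passed no call, with a difference under OGD of -0.37 ± 0.05 (adjusted p = 0.000409).

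**Figure D3:**
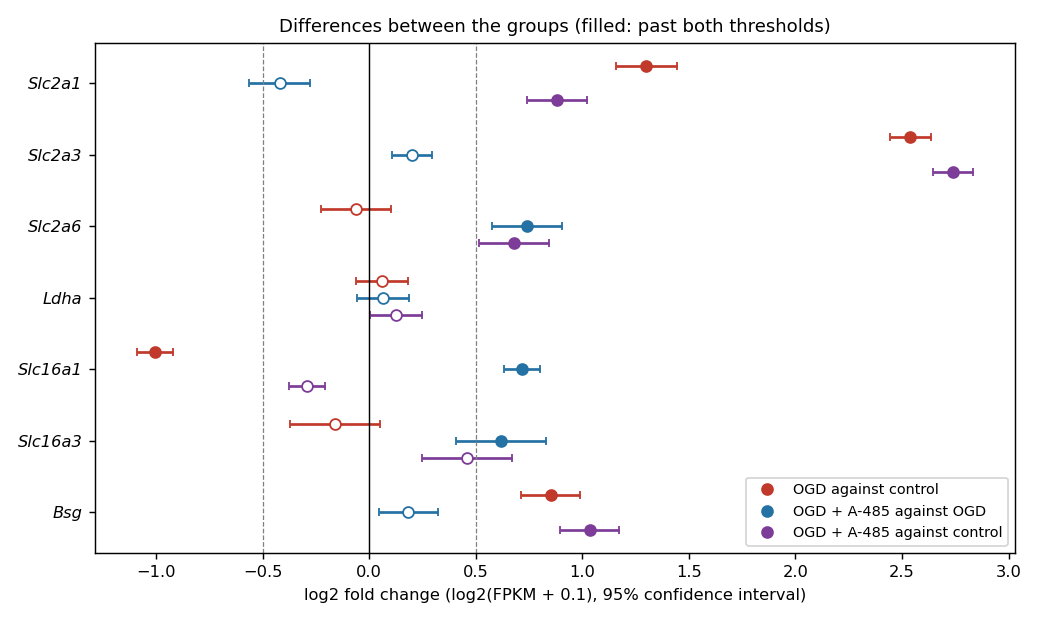
Log2 fold change with its 95% interval (horizontal axis) of the 7 tested genes in the 3 comparisons, where filled points passed both thresholds and dashed lines mark the fold limit of 0.5. Filled points of Slc2a1, Slc2a3 and Bsg lie to the right and Slc16a1 to the left in OGD against control, Slc2a6, Slc16a1 and Slc16a3 lie to the right in OGD + A-485 against OGD, and the points of Ldha lie near 0 in each.

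The groups did not overlap for 4 of the 7 tested genes in OGD against control (55.4% of all tested genes), for 6 in OGD + A-485 against OGD (56.8%) and for 7 in OGD + A-485 against control (63.8%). At an adjusted p under 0.05, with no fold limit, 4, 6 and 6 of the 7 passed, against 45.3%, 49.8% and 56.6% of all tested genes. In order of level, the control group ran from Ldha through Bsg, Slc2a1, Slc16a3, Slc16a1 and Slc2a6 to Slc2a3, and no neighbours in that order overlapped. Under OGD, Slc2a3 stood next after Slc2a1 and Slc16a1 last, again with no overlap between neighbours. With A-485 the order was that of OGD, and Slc2a6 and Slc16a1, at 44.5 to 54.0 and 42.8 to 45.2 FPKM, overlapped.

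The genes whose profile over the 9 libraries was most like that of Slc2a1, among 5268 others that averaged 10 FPKM or more, were Furin, Hk3 and Pik3ap1, each with a Pearson correlation of 0.996 of log2 values. For Slc16a3 they were Sap18b (0.985), Mllt6 (0.984) and Man1c1 (0.982), and for Ldha they were Rasal3 (0.978), Lrp5 (0.961) and Aamp (0.959). The 9 libraries fall into 3 groups, so such values describe a shared order of the group means and carry no test.

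Of 12 other glucose carriers, 3 reached the minimum level and were tested, and 2 were called higher under OGD (11.2% of all tested genes). Slc2a8, an intracellular carrier, held 2.72 ± 0.19 FPKM in control, 5.84 ± 0.08 under OGD and 3.10 ± 0.35 with A-485, a rise of 1.08 ± 0.09 (adjusted p = 2.53e-05) and a fall with A-485 against OGD of -0.90 ± 0.09 (adjusted p = 5.42e-05). Slc2a9, a urate carrier, held 2.46 ± 0.29, 4.25 ± 0.35 and 5.92 ± 0.36 FPKM and rose under OGD by 0.76 ± 0.10 (adjusted p = 0.000315). In OGD + A-485 against OGD 1 of the 3 was called (25.7% of all tested genes), and 2 without OGD replicate 2.

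Txnip and Arrdc4 encode arrestin-like proteins that take glucose carriers off the cell surface. Txnip went from 65.5 ± 1.2 FPKM in control to 130 ± 3 under OGD and 192 ± 6 with A-485, with rises of 0.99 ± 0.04 (adjusted p = 3.73e-07) and 0.56 ± 0.04 (adjusted p = 3.56e-06). Arrdc4 held 7.17 ± 0.36, 10.1 ± 0.3 and 22.5 ± 1.5 FPKM. Its difference under OGD, 0.49 ± 0.06 (adjusted p = 0.000222), was just under the fold limit. It passed that limit without control replicate 1 or 2 or without OGD replicate 1. It also passed under quantile normalization, limma-voom on the recovered reads and removal of the neighbouring genes' change. The rise of Arrdc4 with A-485 was 1.14 ± 0.06 (adjusted p = 1.26e-06). Of these 2 genes, only 1 was called with A-485 under quantile normalization or under scaling to library totals.

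Among 13 other monocarboxylate carriers, 7 were tested. In OGD against control 0 were called higher and 2 lower, and in OGD + A-485 against OGD 1 was called higher and 0 lower (2 were called without OGD replicate 2). All tested genes were called at 21.0% and 25.7% in these comparisons. Slc16a10, a carrier of aromatic amino acids, held 16.7 ± 0.3, 10.5 ± 0.8 and 14.4 ± 0.3 FPKM and fell by 0.66 ± 0.05 under OGD (adjusted p = 1.99e-05). Slc16a8, which encodes MCT3, was called lower under OGD and higher with A-485, at levels of 0.479, 0.0661 and 0.553 FPKM, close to the pseudocount. The median of the 7 was -0.66 in OGD against control, where that of all tested genes was 0.01. That median is the value of Slc16a10 itself. Slc16a4, Slc16a5 and Slc16a11 were also at low levels, with means of 0.497, 0.593 and 0.240 FPKM. At higher levels, Slc16a6 (0.0014) and Slc16a13 (-0.16) were not called under OGD. The median therefore does not show a fall shared by these carriers.

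Between glucose entry and lactate formation, 19 of 20 listed glycolytic genes were tested. Under OGD 7 were called higher and 0 lower, with a median log2 fold change of 0.42. In OGD + A-485 against OGD 2 were called higher and 5 lower, with a median of -0.08 against 0.01 in all tested genes. The shares of all tested genes called in the 2 comparisons were 21.0% and 25.7%. The hexokinases Hk3 and Hk1, which trap glucose as its phosphate, rose from 95.3 ± 4.7 to 203 ± 10 FPKM and from 28.7 ± 1.5 to 59.7 ± 3.6 FPKM under OGD. Aldoc, an aldolase, held 27.6 ± 1.2, 53.7 ± 0.5 and 78.8 ± 1.3 FPKM in the 3 groups and rose in both steps, by 0.96 ± 0.04 (adjusted p = 5.67e-07) and 0.55 ± 0.04 (adjusted p = 5.10e-06). Pfkp, a subunit of phosphofructokinase, the main control point of the path, held 67.3 ± 1.3, 119 ± 3 and 66.5 ± 3.8 FPKM. It rose by 0.82 ± 0.05 under OGD (adjusted p = 2.68e-06) and fell with A-485 against OGD by 0.84 ± 0.05 (adjusted p = 1.22e-06). Pfkm, the muscle-type subunit, also fell with A-485, by 0.62 ± 0.05 (adjusted p = 1.47e-05). Pfkfb2, which makes an activator of phosphofructokinase, rose by 0.67 ± 0.13 (adjusted p = 0.00199). Others of its family went the other way with A-485 against OGD. Pfkfb1 was called lower at -0.62 ± 0.18 (adjusted p = 0.0171) and Pfkfb4 at -0.61 ± 0.07 (adjusted p = 6.79e-05). Pfkfb3 was not called, at -0.08 ± 0.08 (adjusted p = 0.476). Pfkfb3 and Pfkfb4 are named here to complete the family. Gapdh, named after its values were seen, ranged from 4.11 to 108 FPKM between libraries without regard to group. It has many near-identical copies in the genome, and its value is uncertain. Gapdh is among the 19 tested genes, and the median of 0.42 under OGD is its own value (0.42 ± 1.23).

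**Figure D4:**
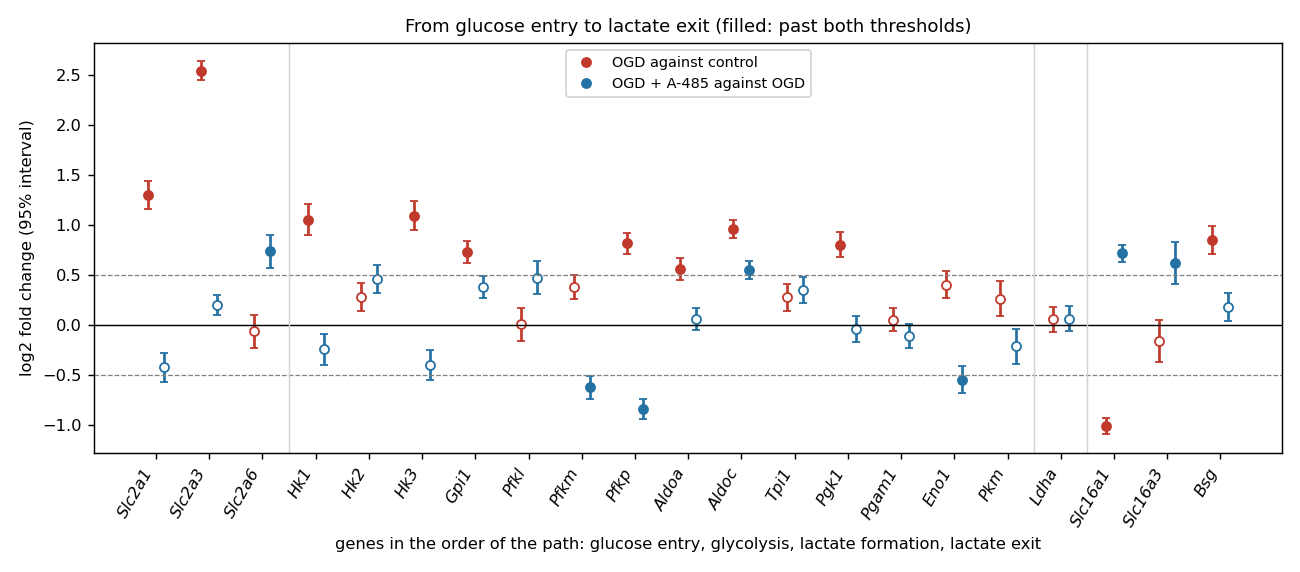
Log2 fold change with its 95% interval (vertical axis) of genes in the order of the path, in OGD against control (red) and OGD + A-485 against OGD (blue), where filled points passed both thresholds and vertical lines part glucose entry, glycolysis, lactate formation and lactate exit. Gapdh, whose interval in OGD against control was -2.37 to 3.22, and the Pfkfb genes are not drawn. The lowest red point is Slc16a1 at -1.01 and the highest Slc2a3 at 2.54, and the lowest blue point is Pfkp at -0.84.

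At the branch where pyruvate enters the mitochondrion instead, 12 of 14 genes were tested. Under OGD 2 were called higher and 1 lower, and with A-485 against OGD 1 was called higher and 2 lower. These counts are near the shares of all tested genes called, 21.0% and 25.7%. Pdk1, a kinase that shuts the pyruvate dehydrogenase complex, rose from 35.0 ± 0.7 to 53.3 ± 1.8 FPKM under OGD, a rise of 0.60 ± 0.03 (adjusted p = 3.28e-06), and measured 52.3 ± 0.6 FPKM with A-485. Pdp2, a phosphatase that opens it again, fell under OGD by 0.73 ± 0.07 (adjusted p = 4.56e-05). Pcx, which turns pyruvate into oxaloacetate, held 16.2 ± 0.8, 26.3 ± 1.5 and 6.50 ± 0.16 FPKM, a rise under OGD of 0.70 ± 0.06 (adjusted p = 1.61e-05) and a fall with A-485 against OGD (adjusted p = 3.79e-08). Pdk3, another of the kinases, measured 7.85 ± 0.17 and 10.3 ± 1.4 FPKM in control and OGD and 0.0626 FPKM with A-485, where 1 of the 3 libraries was at 0 (adjusted p = 3.82e-07 against OGD).

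Of 9 genes for lactate sensing and lactylation, all 9 were tested, 1 was called higher under OGD, and 1 higher and 1 lower with A-485 against OGD. The shares of all tested genes called were 21.0% and 25.7%, so these counts do not stand out. Gpr132, a receptor that macrophages use to sense lactate, held 18.9 ± 0.9, 20.1 ± 0.8 and 49.8 ± 1.7 FPKM and rose with A-485 by 1.30 ± 0.05 (adjusted p = 1.88e-07). Hcar1, the other lactate receptor listed, was called higher under OGD at a level of 0.449 FPKM against 0.0960 FPKM in control (adjusted p = 0.0167), a call lost without any of control replicates 1, 2 and 3 or OGD replicates 2 and 3. Hdac3, a deacetylase that also removes lactyl groups, fell with A-485 by 0.58 ± 0.05 (adjusted p = 3.24e-05).

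Of 12 further genes of the hypoxia response, 9 were called higher and 0 lower under OGD, with a median log2 fold change of 1.26. With A-485 against OGD 1 was called higher and 1 lower, and 5 of the 12 were called under quantile normalization and 5 under scaling to library totals. Among all tested genes, 11.2% were called higher under OGD, and 25.7% were called with A-485 against OGD. Egln3, a prolyl hydroxylase that marks hypoxia-inducible factors for destruction, held 84.8 ± 4.9, 335 ± 4 and 53.4 ± 0.9 FPKM. It rose by 1.98 ± 0.04 under OGD (adjusted p = 3.98e-08) and with A-485 fell by 2.65 ± 0.04 (adjusted p = 3.47e-09). Ndrg1, a widely used marker of hypoxia, held 28.3 ± 0.7, 108 ± 7 and 78.3 ± 5.1 FPKM, and its difference with A-485 of -0.46 ± 0.06 (adjusted p = 0.000273) was under the fold limit. P4ha1, a collagen prolyl hydroxylase, held 42.6 ± 1.3, 57.0 ± 1.2 and 94.3 ± 3.7 FPKM and rose with A-485 by 0.73 ± 0.04 (adjusted p = 1.45e-06).

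Some of these genes have copies or overlap other annotated features. The pseudogene Ldha-ps2 held 54 to 136 reads, at most 0.317% of the Ldha reads of a library, and 4 other copies of Ldha held at most 6. The antisense genes Gm12867 and Gm12868 and the miRNA Mir1957a at Slc2a1 reached at most 0.571% of its reads, the pseudogene Gm4482 within Slc2a3 at most 0.763%, and Gm43585 and Gm43581 within Slc16a1 at most 0.487%. Whether the authors' counting used the strand is not given in the sources used here, and antisense reads at Slc2a1 cannot be told apart from its own if it did not.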

How the data were processed

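The authors deposited FPKM, which they derived from featureCounts read numbers after a quality filter. Their DESeq2 test was not repeated here because the deposited values are FPKM. The labels name GRCm38 and mm10, and the coordinates of the 9 genes equal those of GENCODE M21. Multiplying FPKM by gene length and by 1 constant per library recovered reads that were whole, within 0.05, for 100% of values. From the FPKM, limma 3.58.1 in R 4.3.3 fitted log2(FPKM + 0.1) of 16123 genes that averaged 0.2 FPKM or more, over all 9 libraries and with a trended prior variance. Calls needed p under 0.01 before adjustment and a log2 fold change past 0.5 in either direction. The fit was tested on simulated data. The alternatives were other pseudocounts and filters, quantile normalization, scaling to library totals, fits of only the groups compared, a replicate block, no trend, limma-voom on the recovered reads, an adjusted p threshold, removal of the median change of the 50 nearest genes, and each library left out. The genes and lists were chosen with earlier results of these data known. From each list, the called genes with the 4 largest changes in OGD against control and in OGD + A-485 against OGD could be named, and short lists were given whole. The 95% intervals come from the spread between libraries in the limma fit, and the limit of 3 reads covers counting error only. Tables were handled in Python 3.11.15.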

Additional observations from a re-analysis of the deposited data

How the results depend on the processing

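For 21 differences (7 genes in 3 comparisons) and 21 alternatives, 423 of 441 values kept their direction and their side of the threshold, 2 lost the call, 7 gained it and 9 changed sign, of which 0 were called. Several alternatives cannot move a log2 fold change and alter only its p-value. Leaving out a library of the group outside the comparison is an example. For these the direction was fixed beforehand, so the count of 423 overstates how far direction was tested. The adjusted p threshold drops the fold limit, and the gained calls of Slc2a3, Bsg and Slc16a1 came from it alone. Sign changes under quantile normalization were those of Ldha (-0.060 in OGD against control, -0.12 in OGD + A-485 against OGD, -0.18 in OGD + A-485 against control) and of Bsg (-0.025 in OGD + A-485 against OGD). After removal of the change of neighbouring genes they were those of Ldha (-0.11, -0.034 and -0.15 in the same order), Slc2a6 (0.036 in OGD against control) and Slc2a3 (-0.13 in OGD + A-485 against OGD). The cause was not tested. With an adjusted p under 0.05 and no fold limit, 6 genes instead of 3 were called in OGD + A-485 against OGD. Scaling to library totals moved the median of all genes by -0.10 in OGD + A-485 against control and gave 2253 higher and 3350 lower calls, against 2747 and 2684.

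Deviations from the group means gave no sign of pairing by replicate number (mean correlation -0.0302 for equal numbers, against 0.0151 for different numbers). The deviations sum to 0 within each group, which ties these averages to each other. They cannot show that libraries of equal number were handled apart. With the replicate block, 4, 3 and 4 of the 7 genes were called in the 3 comparisons, as without it, and 1740 genes were called higher and 1548 lower in OGD against control, against 1803 and 1581. With 12593250 to 16091038 reads per library, Ldhb and Slc16a7 could not be told from 0.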
